A study of Mus musculus with 4 samples.

Results

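The genes of the proteasome and of the ubiquitin-conjugating (E2) enzymes were described in a map of N6-methyladenosine (m6A) in mouse liver RNA. Members were all genes whose symbol in either deposited peak list begins with Psma to Psmg and a digit, or with Ube2. The rule gave 53 of the 9650 genes with a peak, namely 27 Psm genes and 26 Ube2 genes. They carried 53 of 14693 peaks in the list from Alkbh5-HKO mice (HKO) and 65 of 14057 peaks in the list from Alkbh5flox/flox mice (FF). ALKBH5 is an enzyme that removes m6A. The labels do not spell out HKO, and no source used here names the Cre line behind it. Mice of both genotypes, fed normal chow, were 9 weeks old, and 300 μg of RNA pooled from 3 livers was used for each. Fragmented RNA of about 100 nt was pulled down with an antibody to m6A (IP), and a peak is a stretch of exon with more IP reads than its input predicts. With 4 libraries in all (1 IP and 1 input per genotype), every value below comes from 1 pool and has no replicate.

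The proteasome degrades proteins marked with ubiquitin. Its barrel, the 20S core, is built from alpha (Psma) and beta (Psmb) subunits, and some beta subunits cut the substrate. The 19S cap recognises ubiquitin chains and unfolds the substrate with a ring of ATPases (Psmc), held by scaffold and receptor subunits (Psmd). Psme genes encode other activators of the core, Psmf1 a protein first described as an inhibitor, and Psmg genes chaperones that assemble the core. The E2 enzymes stand upstream: an E1 enzyme loads ubiquitin on an E2, which passes it to a substrate together with an E3 ligase. Some Ube2 enzymes carry NEDD8 or ISG15, proteins related to ubiquitin. In messenger RNA, m6A is commonest near the stop codon and in the last exon. Antibodies to m6A also bind m6Am, a mark next to the cap at the start of the transcript.

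Of 12 hepatocyte marker genes, 11 carried a peak, against 40.8% of all protein-coding genes. Of the 11, 5 had it in both lists (45.5%, against 75.6% of all genes with a peak). A further 5 had it in HKO alone (45.5%, against 13.2%) and 1 in FF alone (9.09%, against 11.2%). Peaks were also listed for 4 of 6 macrophage, 4 of 5 endothelial, 4 of 4 stellate, 1 of 4 cholangiocyte and 0 of 4 lymphocyte markers. Alkbh5 itself had 0 peaks in the HKO list and 3 in the FF list. The lists hold no RNA levels and no read totals, so neither the depth of a library nor the expression of a gene is known, and fewer reads of a transcript, fewer cells that make it and less methylation cannot be told apart.

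Proteasome genes had peaks in the FF list more often than in the HKO list. Both lists held a peak for 17 of the 27 Psm genes (63.0%, 95% Wilson interval 44.2 to 78.5), against 75.6% of all genes with a peak. A further 2 genes had a peak in HKO alone (7.41%, 2.06 to 23.4, against 13.2% of all genes), and 8 in FF alone (29.6%, 15.9 to 48.5, against 11.2% of all genes). With all listed peaks, the E2 genes lay nearer to the whole series in the both-lists and FF-alone shares. Of 26 Ube2 genes, 20 had a peak in both lists (76.9%, 57.9 to 89.0), 2 in HKO alone (7.69%, 2.14 to 24.1) and 4 in FF alone (15.4%, 6.15 to 33.5). No test between genotypes was possible with 1 pool each, and the intervals cover counting error only. With a q, the authors' false discovery rate for a peak, of 1e-05 or less in both lists, 3 of 24 Psm and 1 of 21 Ube2 genes were in HKO alone (against 15.8% of all genes), and 7 of 24 Psm and 5 of 21 Ube2 genes in FF alone (against 9.65%). With a fold of 2 or more, 2 of 27 Psm and 2 of 26 Ube2 genes were in HKO alone (against 14.1%), and 9 of 27 Psm and 6 of 26 Ube2 genes in FF alone (against 11.9%). With either cut the Ube2 genes in FF alone lay further above the share of all genes, so their nearness to the series depends on the setting. Among annotated protein-coding genes (RefSeq, GRCm38.p6), 27 of 51 with a Psm symbol and 25 of 37 with a Ube2 symbol had a peak, against 40.8% of all protein-coding genes. The 40.8%, here and below, takes in every annotated gene whether or not liver expresses it, so it is not matched for expression.

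In the alpha ring of the 20S core, 3 of 8 genes had a peak (37.5%, against 40.8% of all protein-coding genes). Psma4 carried a peak near its end, at chr9:54956923-54958034 in HKO (fold enrichment over input 13.2, log10 q -271) and at chr9:54956923-54957917 in FF (fold 3.13, log10 q -74.7). Psma6 carried a peak of the same limits in both lists, with a fold of 4.13 in HKO and 3.04 in FF, centred 103 bp from a RefSeq start inside the gene. Psma7 had a peak in FF alone, at chr2:180042022-180042405, centred 250 bp from the gene start (fold 11.4, log10 q -4.36). Psma1, Psma2, Psma3, Psma5 and Psma8 had no peak in either list.

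The beta ring, which holds the proteolytic sites, had peaks on 4 of 11 genes (36.4%, against 40.8% of all protein-coding genes). Of these 4 genes, 3 had them in FF alone, against 11.2% of all genes with a peak. Psmb5, the chymotrypsin-like catalytic subunit, carried its FF peak at chr14:54617821-54617995 (fold 2.20, log10 q -5.22). Psmb7, the trypsin-like catalytic subunit, carried its FF peak at chr2:38643387-38643952 (fold 4.70, log10 q -11.9), and Psmb4, a structural subunit, at chr3:94886780-94886958 (fold 5.30, log10 q -58.5). The 3 peaks were alike in place, their centres 87, 88 and 89 bp away from the start of the gene, and each reached the annotated first base. The fourth gene, Psmb10, encodes the subunit that replaces Psmb7 in the immunoproteasome. Its peaks overlapped between the lists (fold 3.37 in HKO and 2.90 in FF) and had their centres 280 bp (HKO) and 324 bp (FF) into the gene. The other immunoproteasome genes, Psmb8 and Psmb9, had no peak, nor had Psmb1, Psmb2, Psmb3, Psmb6 and Psmb11.

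Of the 6 genes for 19S ATPases, Psmc6 had peaks in both lists, Psmc4 in HKO alone and Psmc2 in FF alone. The Psmc6 peaks began at the first base of the gene and overlapped (fold 4.56 in HKO and 3.19 in FF). Psmc4 carried its HKO peak at the other end, at chr7:28041702-28041792, centred 45 bp from the gene end (fold 2.92, log10 q -4.71). The FF peak of Psmc2, at chr5:21786736-21795785 in 3 exon blocks (fold 6.79, log10 q -28.3), was centred 94 bp from a RefSeq start inside the gene. Psmc1, Psmc3 and Psmc5 had none.

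Of the 14 Psmd genes, 11 had a peak (78.6%, against 40.8% of all protein-coding genes). Psmd1, the large scaffold subunit, had a peak in FF alone, at chr1:86064649-86071622, centred 135 bp from the gene start, with the highest fold of any Psm peak in that list (27.4, log10 q -7.24). Psmd2, the other large scaffold, carried the same interval in both lists, with a fold of 7.83 in HKO and 16.4 in FF, centred 161 bp from a listed start. It also had an HKO peak of low fold inside the gene (1.54, log10 q -2.16) that overlapped no FF peak. Psmd9, an assembly chaperone of the cap, had a peak in FF alone, centred 194 bp from the gene start (fold 4.04, log10 q -20.5). Psmd5, another such chaperone, had overlapping peaks near the gene end (fold 9.58 in HKO and 4.41 in FF) and an FF peak at the start (fold 6.27, log10 q -2.18).

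Psmd4, a receptor for ubiquitin chains, carried 2 peaks in each list. Those of FF were centred near each end of its gene, and those of HKO near the end and inside the gene. At the end, the fold was 5.18 in HKO (log10 q -190) and 4.90 in FF (log10 q -139). The FF start peak (fold 6.09) reached the first base and overlapped the second HKO peak (fold 1.60), which did not. The centre of that HKO peak falls in another exon, 5911 bp from the gene start. Psmd12, a lid subunit, was the 1 Psm gene with peaks in both lists that did not overlap. Its HKO peak, at chr11:107497591-107497828, was centred 326 bp from the gene end (fold 4.25, log10 q -44.4), and its FF peak, at chr11:107479528-107485601, was centred 104 bp from the gene start (fold 2.76, log10 q -4.67). Psmd11, also a lid subunit, had 2 peaks in HKO alone, with folds of 2.39 and 2.51, their centres 1139 bp and 719 bp before the end.

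Psmd3, Psmd7, Psmd8 and Psmd13 had peaks that overlapped between the lists. Psmd3, a lid subunit, carried a start peak (fold 3.89 in HKO and 8.5 in FF) and, in FF, an end peak with no HKO counterpart (fold 3.41, log10 q -22.7). Psmd7, the partner of the deubiquitinase Psmd14, had the longest Psm peaks, of 889 bp of exon in HKO and 800 bp in FF (fold 5.44 in HKO and 4.01 in FF). The end peaks of Psmd13 (fold 2.20 in HKO and 9.50 in FF) and Psmd8 (1.61 in HKO and 5.48 in FF) had the higher fold in FF. Psmd6, Psmd10 and Psmd14 had no peak.

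Among the activators, Psme1, which encodes an interferon-inducible activator subunit, had 2 peaks in FF alone, at the start (fold 3.47, log10 q -4.62) and inside the gene (fold 2.07, log10 q -1.95). Psme3, which encodes a nuclear activator, had start peaks of similar fold, 13.2 in HKO and 11.7 in FF. Psme4, the large activator of the core, had a fold of 2.44 in HKO (log10 q -2.29) and 21.9 in FF (log10 q -8.77) at its start. Psmf1 stood at the other extreme, with a fold of 53.9 in HKO (chr2:151718029-151718446, log10 q -31.5) and 3.77 in FF (chr2:151718059-151718297, log10 q -8.71), centred 2176 bp (HKO) and 2116 bp (FF) before the gene end. The chaperone gene Psmg3 had end peaks with a fold of 4.23 in HKO and 9.06 in FF, while Psmg1, Psmg2 and Psmg4 had none. Psme3ip1, whose product binds the Psme3 activator and is no subunit, had overlapping end peaks (12 in HKO and 14.1 in FF) and a second end peak in HKO (8.11, log10 q -12.7).

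**Figure D1:**
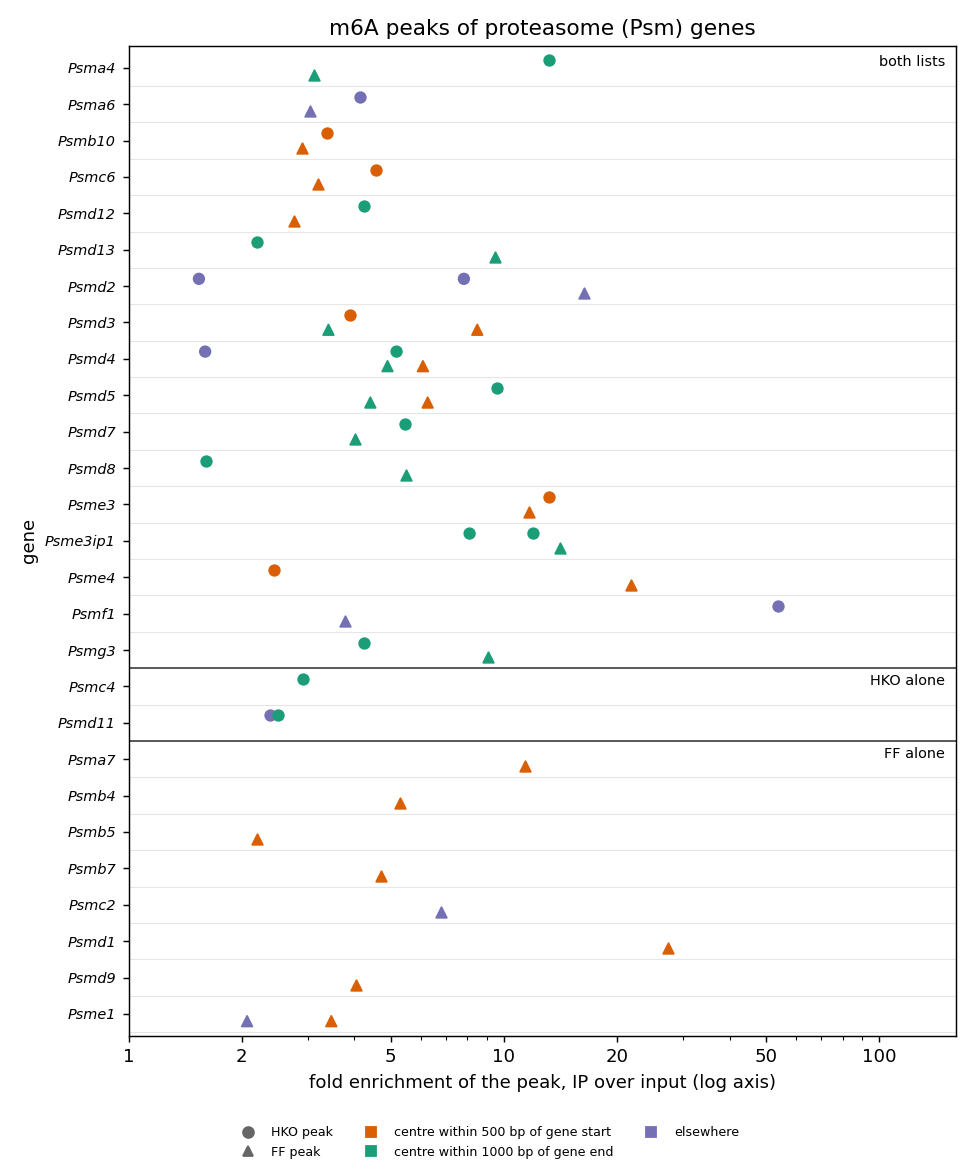
Fold enrichment over input (log axis) of each peak on the 27 Psm genes, grouped by the list that holds them. Circles are HKO peaks and triangles FF peaks, 1 pool per genotype, and colour gives the position of the peak centre. In the FF-alone group 7 of the 9 peaks lie at the gene start. Over all genes, 34.7% of the FF peaks that overlap no HKO peak lie there, a share that includes such peaks on genes found in both lists.

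Most peaks of the 8 Psm genes in FF alone lay at transcript starts. Of their 9 peaks, 7 had their centre no more than 500 bp away from the start in the annotation. With the RefSeq start inside Psmc2 the number was 8, all but the inner peak of Psme1. The 4 Ube2 genes in FF alone were placed in the same way: Ube2a and Ube2d2a were centred 150 bp from the gene start, and Ube2b and Ube2e2 lay 88 bp and 60 bp away from another listed start. Over all genes, 34.7% of the FF peaks that overlapped no HKO peak were within 500 bp of the gene start. Counting any listed start, 18.5% of all FF peaks lay at one. That share includes peaks that overlap an HKO peak, and it was not computed for those that overlap none. At the gene start, 15.0% of all FF peaks lay within 500 bp, so peaks of FF alone are more often there across the series. The 5 peaks of the 4 members in HKO alone all lay towards the gene end, between 90.8% and 99.5% of the gene span. By the 1000 bp window, only the Psmc4 peak (45 bp from the end) and the Psmd11 peak at 719 bp were end peaks. The other Psmd11 peak (1139 bp) and those of Ube2g2 (1256 bp) and Ube2n (2818 bp) fell outside it. Placement near gene ends is common in the series. Of all HKO peaks that overlapped no FF peak, 33.6% were within 1000 bp of the gene end, and 75.8% of all HKO peaks were in the first or last 20% of the span. The share of all peaks in the last part of the span alone was not computed.

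A RefSeq sequence of the annotated gene start was on hand for 32 of the 53 members. In 9 of them an FF peak held all of the first 30 bases, and in 2 of these, Ube2h and Ube2q1, an HKO peak did so too. The share was 5 of 18 Psm starts and 4 of 14 Ube2 starts in FF peaks, against 12% of all starts of genes with a peak, and 0 of 18 and 2 of 14 in HKO peaks, against 5.75%. Of the 9 starts, 8 are printed because they are the stretches of member RNA that FF peaks covered to the first base. Sequences are given 5′ to 3′ on the transcript strand, as DNA letters from GRCm38.p6. Capitals mark GAC, the centre of the common m6A motif, searched on the transcript strand.
Psmb4: cgtttccggtGACgctagcgctttcatttc
Psmb5: aaacatggcgctggctagcgtgttgcagcg
Psmd12: gagtggtggccgaacctggggtacagcagg
Psme1: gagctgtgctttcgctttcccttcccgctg
Ube2g1: gccctgcgcgcagtgaggcagtggcggggg
Ube2h: gcgcctagagcgaggctagggtagagaggc
Ube2q1: ggcgaaggggggatcaggaagtgcgGACcg
Ube2z: GACactctggcccggctctcggtggtgcgg
The windows lie at chr3:94886929-94886958, chr14:54617966-54617995, chr11:107479528-107479557, chr14:55578494-55578523, chr11:72607261-72607290, chr6:30304510-30304539, chr3:89773609-89773638 and chr11:96065335-96065364, in the order printed. Psmb4, Psmb5, Ube2h and Ube2z are on the minus strand and the others on the plus strand. GAC stood in 3 of the 8 windows, and in 6 of 8 when the first 50 bases were read. The first base was G in 6 of the 8 and A in 1, against 32.2% (G) and 36.7% (A) of all starts. Among all listed member starts it was G in 44.4% (Psm) and 64.3% (Ube2), and A in 33.3% and 14.3%. Over all members with a listed start, GAC was present in the first 50 bases of 10 of 18 Psm genes (55.6%) and 9 of 14 Ube2 genes (64.3%), against 48.6% of the starts of all genes. The longer GGAC was present in 5 (27.8%) and 3 (21.4%), against 18.2% of all starts, and on the opposite strand in 4 (22.2%) and 3 (21.4%), against 16.3%. GGAC includes GAC, so the counts overlap. The motif TGANNNNGC, part of the element read by the proteasome regulator NFE2L1, was searched on both strands of the 250 bases before the start. It was present in 5 of 18 Psm genes (27.8%) and 5 of 14 Ube2 genes (35.7%), against 34.7% of all genes.

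The E2 genes divide by the modifier and the chain they make. For NEDD8, both E2 genes had peaks in both lists. Ube2m carried overlapping peaks at its start, chr7:13037593-13038127 in HKO (fold 7.07, log10 q -179) and chr7:13037593-13038186 in FF (fold 42.8, log10 q -307). Ube2f carried end peaks with a fold of 4.52 in HKO and 9.48 in FF. Ube2l6, the E2 of ISG15, had no peak.

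Of the E2 genes of protein degradation at the endoplasmic reticulum, Ube2j1, Ube2j2 and Ube2g1 had peaks towards the gene end in both lists, with a split at the start. Ube2j2 carried its strongest peak centred 2199 bp (HKO) and 2184 bp (FF) before the gene end, with a fold of 11.9 in HKO (log10 q -302) and 9.83 in FF (log10 q -249). It had a further FF peak at the start (fold 3.55, log10 q -7.56). Ube2j1 likewise had overlapping 3′ peaks (fold 2.94 in HKO and 2.39 in FF) and a start peak in FF (fold 11.7, log10 q -2.12). Ube2g1 had peaks at both places in both lists, with a fold of 1.81 in HKO and 8.44 in FF at the start, and of 13.9 in HKO and 5.05 in FF near the end. The 2 places differed in which list had the higher fold. Ube2g2 had a single peak, in HKO alone (chr10:77644689-77644778, fold 2.78, log10 q -4.37).

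Ube2n, which makes ubiquitin chains used in signalling, had a peak in HKO alone, at chr10:95542750-95542930 (fold 19.5, log10 q -4.20). Ube2v1, its partner without a catalytic cysteine, carried the same interval in both lists, chr2:167608532-167608829, with a fold of 30.5 in HKO and 5.74 in FF. Ube2a and Ube2b, the close pair that act in DNA damage tolerance, both had a peak in FF alone, with folds of 10.6 (chrX:36874355-36874715, log10 q -15.6) and 8.22 (chr11:52000313-52000678, log10 q -6.14). Ube2k, which builds the chains that proteasomes recognise, had the same start interval in both lists and a fold of 4.79 in HKO and 13.3 in FF.

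The Ube2d and Ube2e genes encode closely related E2 enzymes that work with many E3 ligases, and reads of near copies may be shared between them. Ube2d1 had overlapping end peaks (fold 10.2 in HKO and 2.40 in FF). Ube2d3 had overlapping 3′ peaks (fold 7.14 in HKO, log10 q -144, and 2.15 in FF, log10 q -31.0) and an FF peak at chr3:135438548-135439230 (fold 7.98, log10 q -37.0), centred 280 bp from a listed start. That FF peak also touches the lncRNA gene 4930539J05Rik, which lies on the opposite strand. Ube2d2a had 1 weak peak in FF alone (fold 2.22, log10 q -2.66). Ube2d-ps, which RefSeq lists as a long non-coding RNA gene and its name as a pseudogene, had the highest fold of any member, 86.6 in HKO and 11.2 in FF, and a second overlapping pair of 6.65 in HKO and 18 in FF. Its peaks are uncertain, since reads may come from the Ube2d genes. Ube2e1 (4.81 in HKO and 7.83 in FF) and Ube2e3 (1.84 in HKO and 2.46 in FF) had overlapping peaks, and Ube2e2 a peak in FF alone (14.1, log10 q -2.75).

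Ube2q1 carried the most peaks of any member, 4 in HKO and 3 in FF. Its peak at chr3:89782263-89782711 in HKO had a fold of 62.9 and a q below the smallest number the list can hold, and the overlapping FF peak a fold of 9.51 (log10 q -198). At its start the fold was 9.37 in HKO and 15.9 in FF. Ube2h had 3 peaks in HKO and 2 in FF. Its start interval, chr6:30304059-30304539, was identical in both lists and had a fold of 3.94 in HKO and 58.7 in FF, the widest ratio among the member pairs. Near its end the order was the opposite, with HKO at 10 and FF at 6.01, and another HKO peak close by (7.64, log10 q -2.40) overlapped none of FF. Ube2o, a large enzyme with both E2 and E3 activity, had a fold of 53.5 in HKO and 35.6 in FF at a peak 1539 bp (HKO) and 1629 bp (FF) before the gene end, and a start peak in FF (10.2, log10 q -1.72).

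The remaining E2 genes with peaks were in both lists. Ube2z, which takes ubiquitin from the E1 enzyme UBA6, had start peaks with a fold of 1.94 in HKO and 9.27 in FF. Ube2l3, which works with HECT and RBR ligases, had overlapping peaks of 19.5 in HKO and 16.4 in FF and a weak FF end peak (2.33, log10 q -7.51). Ube2r2, a relative of the cell cycle enzyme CDC34, had 5.01 in HKO and 4.86 in FF, with log10 q values of -167 and -203. Ube2u had end peaks of 24.6 in HKO and 9.01 in FF. No peak was listed for Ube2c, Ube2s and Ube2t, which serve cell division and DNA repair, nor for Ube2d2b, Ube2q2, Ube2ql1, Ube2v2 and Ube2w.

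**Figure D2:**
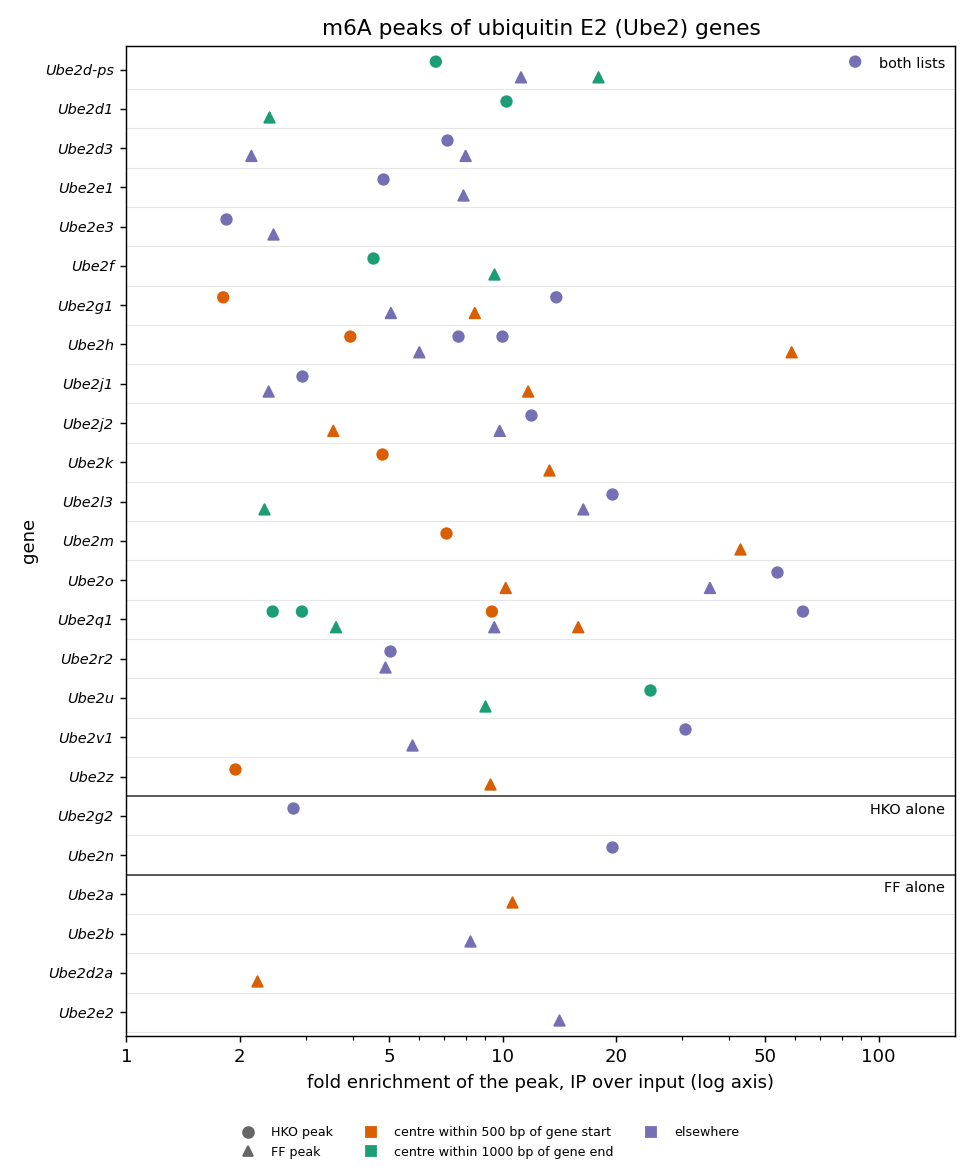
Fold enrichment over input (log axis) of each peak on 25 Ube2 genes, drawn as for the Psm genes, with circles for HKO and triangles for FF. The start peaks in both lists (orange) lie further right in FF for all 6 genes that have them.

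Peaks of both families sat mostly towards the ends of the gene span. All 30 HKO and 36 FF peaks on Ube2 genes were centred in the first or last 20% of the gene span, and 20 of 23 HKO and 27 of 29 FF peaks on Psm genes were. Over all genes 75.8% of HKO and 77.1% of FF peaks were, so most of the series shares this placement. On Ube2 genes the last 20% held 23 HKO and 20 FF peaks, and on Psm genes 14 HKO and 10 FF peaks. The share of all peaks in the last 20% alone was not computed, so these counts cannot be set against the series. The exceptions on Psm genes were the Psma6 pair, the inner peaks of Psmd2 and Psmd4 in HKO, and that of Psme1 in FF. Peaks covering more than 1 exon made up 34.8% of HKO and 55.2% of FF peaks on Psm genes, and 16.7% of HKO and 30.6% of FF peaks on Ube2 genes, against 13.9% of all HKO and 17.4% of all FF peaks.

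**Figure D3:**
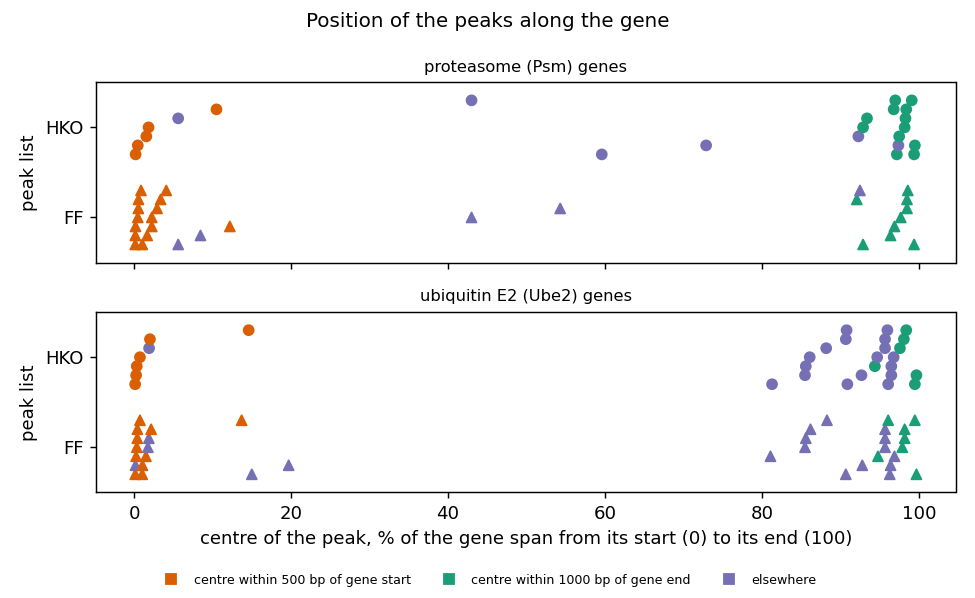
Centre of each member peak along its gene, as a percentage of the gene span from start (0) to end (100), with HKO above FF in each panel. Vertical scatter within a list only separates the points. Peaks gather at both ends of the span, and Ube2 genes have none between 20% and 80%.

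Start peaks made up a larger part of the Psm peaks than of all peaks, in both lists. On Psm genes, 5 of 23 HKO peaks (21.7%, 9.66 to 41.9) and 15 of 29 FF peaks (51.7%, 34.4 to 68.6) were start peaks by the 500 bp window. Over all genes the shares were 7.39% of HKO peaks and 15.0% of FF peaks. On Ube2 genes they were 6 of 30 in HKO (Wilson interval 9.51 to 37.3) and 11 of 36 in FF (30.6%, 18 to 46.9). With a window of 200 bp, the Psm shares were 8.70% in HKO (2 of 23) and 41.4% in FF (12 of 29), and the Ube2 shares 6.67% in HKO (2 of 30) and 16.7% in FF (6 of 36), against 4.36% of all HKO and 9.52% of all FF peaks. Counting any RefSeq start listed for the gene, 7 HKO and 18 FF peaks on Psm genes and 6 HKO and 14 FF peaks on Ube2 genes lay at a start, against 9.39% of all HKO and 18.5% of all FF peaks. Gene by gene, a start peak was present on 15 Psm genes, on 5 in both lists, on 10 in FF alone (66.7%, against 54.2% of all genes with a start peak) and on 0 in HKO alone (against 9.96%). One of the 10, Psmd4, has the overlapping HKO peak described above. Of 11 Ube2 genes with a start peak, 6 had it in both lists, 5 in FF alone (45.5%) and 0 in HKO alone. The share of start peaks was above that of all peaks in both families with either window, though at 200 bp it rests on 2 HKO peaks in each. Among peaks that overlapped none of the other list, 0 of 6 Psm and 0 of 5 Ube2 peaks in HKO were start peaks (against 4.71% of all such HKO peaks), and 9 of 12 Psm and 5 of 11 Ube2 peaks in FF were (against 34.7%). No test of these differences was made.

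Near the gene end, within 1000 bp, lay 12 of 23 HKO (52.2%, 33.0 to 70.8) and 9 of 29 FF peaks (31.0%, 17.3 to 49.2) on Psm genes, against 31.0% of all HKO and 26.6% of all FF peaks. On Ube2 genes 6 of 30 HKO and 7 of 36 FF peaks (19.4%) were end peaks. That count rests on the window: within 500 bp lay 3 of 30 HKO (against 18.7% of all HKO peaks) and 2 of 36 FF peaks (5.56%, against 15.1% of all FF peaks), and within 2000 bp 12 of 30 HKO (against 47.9%) and 11 of 36 FF peaks (30.6%, against 42.8%). Of 12 Psm genes with an end peak, 8 had it in both lists, Psmc4, Psmd11 and Psmd12 in HKO alone (25%, against 25.6% of all genes with an end peak) and Psmd3 in FF alone (8.33%, against 10.9%). The HKO-alone share here was that of the whole series.

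**Figure D4:**
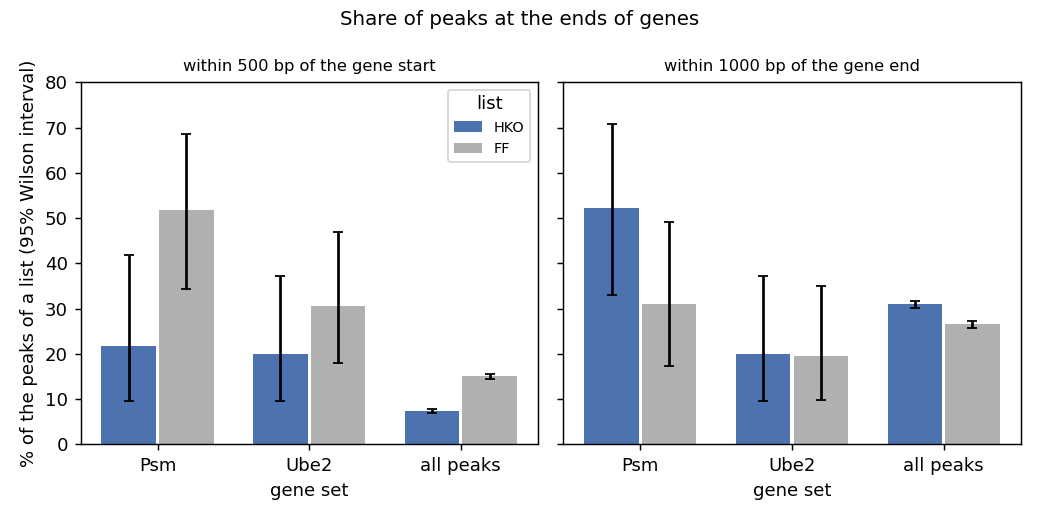
Percentage of the peaks of each list centred within 500 bp of the gene start (left) and within 1000 bp of the gene end (right), for Psm genes, Ube2 genes and all peaks, with 95% Wilson intervals that cover counting error only. The FF bar is higher than the HKO bar at starts in all 3 sets.

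Most member peaks were found in both lists at nearly the same place. On Psm genes, 17 of 23 HKO peaks overlapped an FF peak, leaving 6 that did not (26.1%, 12.5 to 46.5, against 28.5% of all HKO peaks), and 17 of 29 FF peaks overlapped an HKO peak, leaving 12 that did not (41.4%, 25.5 to 59.3, against 25.2% of all FF peaks). On Ube2 genes, 5 of 30 HKO peaks (16.7%) and 11 of 36 FF peaks (30.6%) overlapped none. In 34 of the 42 member pairs the shorter peak lay wholly inside the longer one, and the lowest overlap was 77.9% of the shorter peak. The limits were identical in 5 pairs, on Psma6, Psmd2, Ube2h, Ube2k and Ube2v1.

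Fold values of overlapping peaks are set side by side as the authors' own ratios from separate IP reactions, without a direction of change. The HKO fold was the higher one in 9 of 17 Psm pairs (52.9%) and 14 of 25 Ube2 pairs (56.0%), against 59.6% of 10106 pairs in the whole series. At gene starts the FF fold was the higher one in 8 of 11 member pairs (72.7%, against 70.8% of all start pairs). It was the higher one in 2 of 5 start pairs on Psm genes (40.0%) and in 6 of 6 on Ube2 genes. The FF fold was at least 2 times the HKO fold in 7 of the 11 (63.6%, against 46.3%), on Psmd3, Psme4, Ube2g1, Ube2h, Ube2k, Ube2m and Ube2z. The reverse held in 0 of the 11 (against 12.4%). The FF peak was longer in 8 of these 11 pairs, the HKO peak in 1, and 2 were equal. In pairs outside both windows, over 500 bp from the gene start and over 1000 bp from the gene end, most of them still in the last 20% of the span, the HKO fold was the higher one in 14 of 17 member pairs (82.4%, against 61.1%), and at least 2 times the FF fold in 6 (35.3%, against 28.5%). Those 6 were on Psmf1, Ube2d-ps, Ube2d3, Ube2g1, Ube2q1 and Ube2v1. The FF fold was at least 2 times the HKO fold in 1 of the 17 (5.88%, against 13.3%). At gene ends the HKO fold was higher in 6 of 13 pairs (46.2%, against 66.0%), and the FF fold was at least 2 times the HKO fold in 5 (38.5%, against 9.17%), on Psmd8, Psmd13, Psmg3, Ube2d-ps and Ube2f. The HKO fold was at least 2 times the FF fold in 4 of the 13 (30.8%, against 32.2%), on Psma4, Psmd5, Ube2d1 and Ube2u. The remaining pair is that of Psmd4, whose centres fall in different places.

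**Figure D5:**
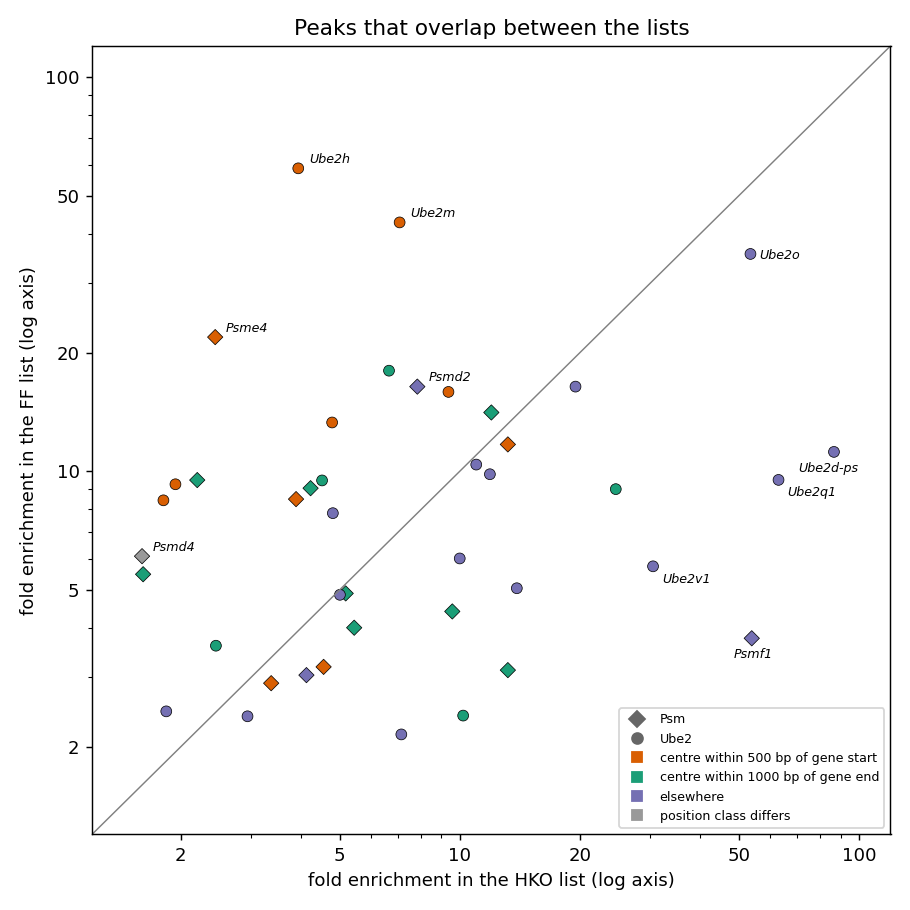
Fold enrichment of the 42 member peaks that overlap between the lists, in HKO (horizontal, log axis) and FF (vertical, log axis), with the line of equal fold. Diamonds are Psm and circles Ube2 genes. Start peaks (orange) lie mostly above the line, and the points furthest below it are Psmf1, Ube2d-ps, Ube2q1 and Ube2v1.

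Enrichment was lower on proteasome genes than in the lists as a whole. The median fold of Psm peaks was 4.23 in HKO (interquartile range 2.47 to 7.97) and 4.90 in FF (3.41 to 9.06), against 10.4 and 8.80 for all HKO and all FF peaks. Only 4 of 23 HKO and 8 of 29 FF peaks on Psm genes were above the median of their list. The significance of the same peaks was not low: the median log10 q was -18.9 in HKO and -21.8 in FF, against -8.70 for all HKO and -7.79 for all FF peaks. Ube2 peaks had a median fold of 7.11 in HKO (4.08 to 13.4) and 9.14 in FF (4.55 to 12.1), and a median log10 q of -23.4 in HKO and -16.0 in FF.

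Strong peaks of a single list (fold at least 2, q at most 1e-05, no overlap with the other list) numbered 3 of 23 on Psm genes in HKO (13.0%, against 8.87% of all HKO peaks) and 7 of 29 in FF (24.1%, against 6.40% of all FF peaks). The 3 were on Psmd11, Psmd12 and Psme3ip1, each centred at most 1139 bp before the gene end. The 7 were on Psmb4, Psmb5, Psmb7, Psmc2, Psmd1, Psmd3 and Psmd9, and 6 of them, all but that of Psmd3, were at a listed start. On Ube2 genes there were 0 of 30 in HKO and 7 of 36 in FF (19.4%). Among those 7 were peaks of Ube2a, Ube2b, Ube2d3, Ube2j2 and Ube2l3.

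Genes that serve the proteasome without a Psm name were read from a list chosen with earlier results of these data known. Of 24 such partners, 19 had a peak, 13 in both lists (68.4%, against 75.6% of all genes with a peak), 1 in HKO alone (5.26%, against 13.2%) and 5 in FF alone (26.3%, against 11.2%). The HKO-alone gene was Usp14, the deubiquitinase of the cap (fold 4.24, log10 q -1.52). The FF-alone genes were Adrm1, a ubiquitin receptor of the cap (11, log10 q -1.92), Sem1, a small lid subunit (1.96, log10 q -5.94), Pomp, the core maturation factor (12.5, log10 q -3.33), Akirin2, which brings proteasomes into the nucleus (3.43, log10 q -2.99), and the shuttle factor Ubqln1 (3.52, log10 q -12.5). Nfe2l1, the transcription factor that drives proteasome genes, had 2 HKO and 3 FF peaks. The fold was 19.6 in HKO and 24.0 in FF at the peak of smallest q, taken in each list separately and perhaps at different places.

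Of 28 genes for ubiquitin, related modifiers and their enzymes, 19 had a peak, 14 in both lists (73.7%, against 75.6% of all genes with a peak), 3 in HKO alone (15.8%, against 13.2%) and 2 in FF alone (10.5%, against 11.2%). These shares were close to those of all genes. Ubb, a polyubiquitin gene, had 3 end peaks in HKO and 0 peaks in FF (fold 6.01, log10 q -93.1 at the peak of smallest q). It consists of ubiquitin repeats that may share reads with other ubiquitin genes, so its peaks are uncertain. Atg10 (26.3, log10 q -6.13) and Birc6 (2.72, log10 q -4.54) also had a peak in HKO alone, and Sae1 (3.66, log10 q -2.38) and Atg3 (2.09, log10 q -2.12) in FF alone. Uba1, the main E1 enzyme, had 2 HKO peaks and 1 FF peak, with a fold of 4.92 in HKO and 29.8 in FF at the peak of smallest q. That peak was taken in each list separately, so the 2 folds may belong to different places.

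Set beside 2 other gene families, the Psm genes had the higher FF-alone share. Cytosolic ribosomal protein genes, which encode another large complex, had 6 of 27 genes in HKO alone (22.2%, 10.6 to 40.8) and 4 in FF alone (14.8%, 5.92 to 32.5). Ubiquitin-specific protease genes had 4 of 35 in HKO alone (11.4%, 4.54 to 26) and 1 in FF alone (2.86%, 0.506 to 14.5). The intervals of the Psm and ribosomal shares overlap, and no test was made.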

How the data were processed

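MeRIP-seq libraries of mouse liver were made from 1 RNA pool per genotype. The authors called peaks with exomePeak 2.16.0 at a q of 0.05, IP against input, per the series design text; fastp 0.19.11, BWA 0.7.12, HOMER 4.9.1 and build GRCm38.p6 are named in the submitters' processing notes. The labels and the design text name different antibodies and library kits, which was not settled here. The deposited p-value, the log10 p and log10 q (each a score without a lower bound) and the fold, a ratio of IP over input, are the authors' own, per the file headers.

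The analysis used scipy 1.17.1, numpy 2.4.6 and pandas 2.3.3 in Python 3.11.15, with figures from matplotlib 3.10.9. Peaks counted as overlapping where their exon blocks shared 1 bp or more and the strand. The centre of the exonic sequence was placed against RefSeq gene spans and listed starts. Peaks were paired by largest overlap in both directions. The overlap step was run on a copy of the FF list with peaks shifted by a few bp or moved away, and placement on toy peaks. These runs check the code only. Depth is unknown. No transcript models were used, so untranslated and coding regions were not assigned.

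Every member is counted, but 1 member and 1 start sequence are not reported here. Named with values were members in a single list, with a list-specific peak of q 1e-05 or less and fold 2 or more, with the 8 highest folds of a family, or with 3 or more peaks, and others for their role. Members, lists and tests were chosen with earlier results of these data known, and pair ratios and listed starts after the lists were seen.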

Additional observations from a re-analysis of the deposited data

How the results depend on the processing

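Counts and shares of both families were recomputed with a q of 1e-05 or less, with a fold of 2 or more, with both lists at the length of the shorter, with an overlap of 50% of the shorter peak, with other windows and, an alternative chosen after seeing the data, with the nearest listed start. Of 52 recomputed values of the main counts and shares, 47 stayed within 1.5 times the count or within the interval of the share. With so few peaks these intervals are wide, for example 9.66 to 41.9 for the HKO start share on Psm genes. The tally is therefore a weak check. A start window of 200 bp lowered the start share to 8.70% of HKO peaks on Psm genes, and to 6.67% of HKO and 16.7% of FF peaks on Ube2 genes (against 4.36% of all HKO and 9.52% of all FF peaks), by construction of a narrower window. Of 38 further values, outside the main counts and shares, 2 moved. They were the end share of Ube2 genes, to 40.0% of HKO peaks with a window of 2000 bp and to 5.56% of FF peaks with one of 500 bp. At a q of 1e-05 or less, Ube2 genes in HKO alone numbered 1 and 94.7% of HKO peaks on Ube2 genes overlapped an FF peak; fewer peaks enter there. Psm genes in FF alone numbered 7 to 9 over the list settings and those in HKO alone 2 to 3, while Ube2 genes in FF alone numbered 4 to 6. No paired analysis was possible because each genotype had 1 pool. The unknown depth limits every statement on a peak that is missing from a list.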
